A study of Mus musculus with 6 samples.

Results

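Toll-like receptors are membrane proteins that recognise molecules of bacteria and viruses, and 9 of them, Tlr1 to Tlr9, are described here in mouse lung together with Cd14, a surface protein that hands bacterial lipopolysaccharide to Tlr4. The 10 genes were taken by name from the array's annotation, each through probe sets annotated to that gene alone. All 10 were measured, each by 1 probe set, among 16537 genes tested and 24173 probe sets in all. Whole lung of mice with a mixed CD1 and C57Bl6 background was collected after naphthalene, which club cells of the airway metabolise to a toxic product and which damages the conducting airway, and total RNA was hybridised to 1 array per sample. The wild-type group held 3 samples, labelled 28, 29 and 30 days after naphthalene, and the Falcor-null group held 3 samples, labelled 31, 32 and 33 days, so that the day label and the genotype changed together. The label rises by 1 from each sample to the next, and whether it gives the true day is not known here. Falcor is a long non-coding RNA gene beside Foxa2, and Falcor-null mice are labelled as lacking it. The labels name no uninjured group and do not give the altered sequence, the age of the mice or whether the samples are separate animals, so the p-values rest on the spread among these samples alone, part of which may be technical.

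Each receptor has a leucine-rich repeat region that binds the ligand and a cytoplasmic TIR domain that recruits adaptor proteins. Tlr1, Tlr2, Tlr4, Tlr5 and Tlr6 act mainly at the cell surface on bacterial lipids and proteins, whereas Tlr3, Tlr7, Tlr8 and Tlr9 act in endosomes on nucleic acids. Most of them signal through Myd88 to NF-kB, Tlr3 signals through Ticam1, and Tlr4 uses both. In lung, alveolar macrophages, monocytes, neutrophils and dendritic cells carry many of them, B cells and plasmacytoid dendritic cells are known for Tlr7 and Tlr9, and epithelial cells are known for Tlr3 and Tlr5.

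Falcor itself (listed as 9030622O22Rik) had more signal in the Falcor-null group than in wild type, with a log2 difference of 1.44 (SE 0.21, limma adjusted p 0.0423). Its probe set may lie inside or outside the altered sequence, which the sources used here do not give, and only a probe set inside could test the labels. The arrays of this group are therefore called null-labelled, and each direction rests on the labels. Differences are in log2 signal, null-labelled minus wild type. Array medians were 6.69 to 6.74, and the minimum of a wild-type array was between 3.19 and 3.22, against 2.09 to 2.42 in the other group. The 6 whole-lung identity markers, which are Sftpc, Scgb1a1, Ager, Pecam1, Foxj1 and Nkx2-1, had mean signals of 11.30 to 11.39 over the wild-type arrays and 11.40 to 11.44 over the null-labelled arrays. Among all genes, 76 were lower and 16 higher at an adjusted p of 0.05, and the median log2 difference was 0.0026.

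All 10 genes had lower means on the null-labelled arrays, where 49.2% of all genes did, and none passed the test at an adjusted p of 0.05, which 0.46% of all genes passed as lower and 0.0968% as higher. At an adjusted p of 0.1, Cd14 and Tlr8 were called, against 1.25% of all genes called lower. At an unadjusted p of 0.05 limma gave 7 of the 10 as lower, against 7.65% of all genes. In 6 of the 10, which were Tlr1, Tlr2, Tlr7, Tlr8, Tlr9 and Cd14, every null-labelled array read below every wild-type array, against 10.6% of all genes. The median log2 difference of the 10 genes was -0.54. The family was picked with earlier results of these data known, and the counts and median describe it without a test of the group. In whole tissue, fewer cells of a type and less RNA per cell cannot be told apart. Marker lists of the cells that carry these receptors were lower on the same arrays and are given with the receptors below.

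**Figure D1:**
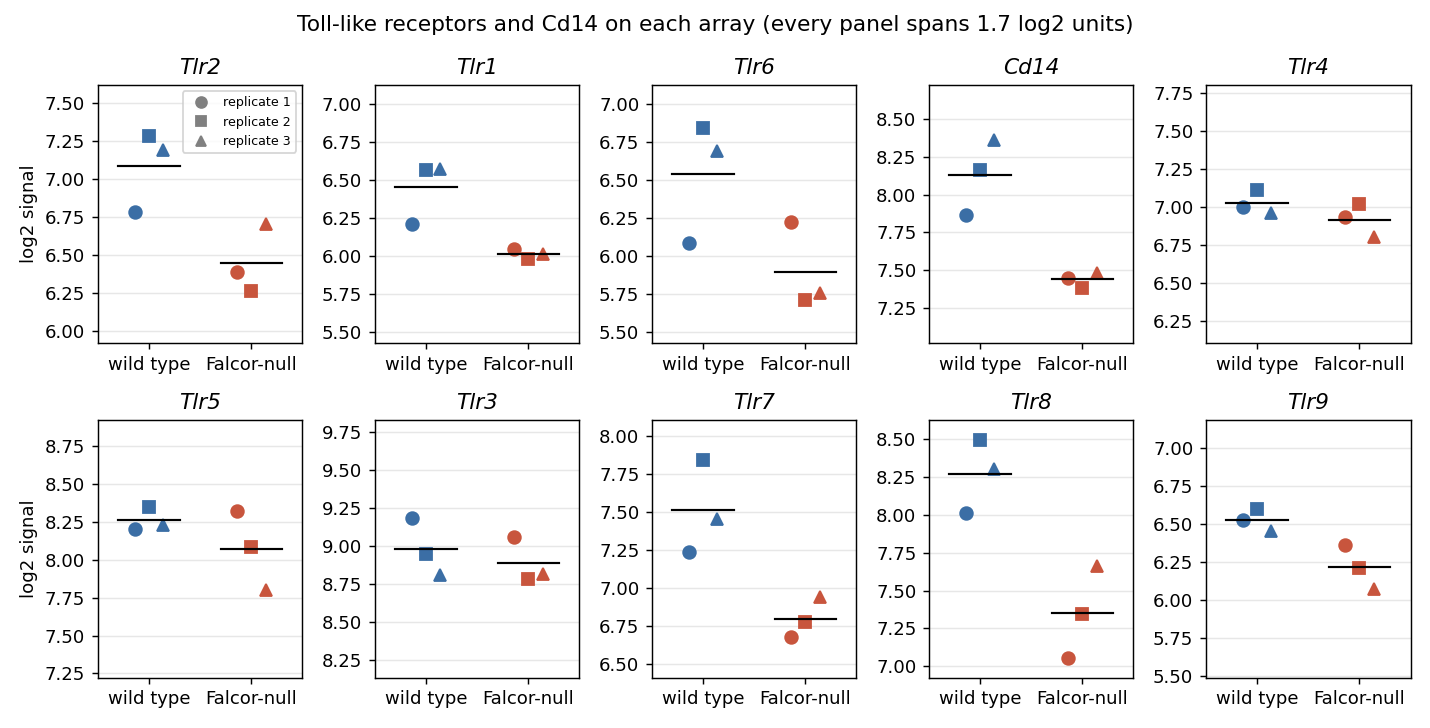
Log2 signal (vertical axis) of the 10 genes on each of the 3 wild-type arrays (blue) and the 3 null-labelled arrays (red), with the replicate number as the marker shape and the group mean as a line. The panels have different levels but the same span, and the groups are apart for Tlr1, Tlr2, Tlr7, Tlr8, Tlr9 and Cd14 and overlap for Tlr3, Tlr4, Tlr5 and Tlr6.

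Tlr2 recognises bacterial lipoproteins as a pair with Tlr1 or with Tlr6, the former for triacylated and the latter for diacylated forms. Its signal was 6.78, 7.28 and 7.19 in wild type and 6.39, 6.26 and 6.703 on the null-labelled arrays. The highest of the second group lay just under the lowest of the first. The means of 7.09 ± 0.27 and 6.45 ± 0.23 (SD, n = 3 each) differed by -0.64 (SE 0.16, 1.55-fold lower, adjusted p 0.155 in limma).

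Tlr1 read 6.21, 6.57 and 6.58 in wild type and 6.05, 5.98 and 6.02 on the null-labelled arrays. The latter 3 were almost level, and wild type replicate 1 stood nearest to them. The difference was -0.44 (SE 0.11, 1.35-fold lower, adjusted p 0.155 in limma). Tlr6, its close relative and its neighbour in the genome, read 6.08, 6.84 and 6.69 in wild type and 6.22, 5.71 and 5.76 on the null-labelled arrays. Its groups overlapped, since wild type replicate 1 read below Falcor-null replicate 1, and its difference of -0.64 (SE 0.22) had an adjusted p of 0.258. The coding sequences of Tlr1 and Tlr6 resemble each other, and whether their probe sets keep them apart was not tested.

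Within each array, the gap between Tlr2 and its partners gave a further comparison, chosen after the values were seen. Tlr2 minus Tlr1 was 0.63 ± 0.07 in wild type and 0.43 ± 0.22 on the null-labelled arrays (SD, n = 3 each). Tlr2 minus Tlr6 was 0.55 ± 0.14 and 0.55 ± 0.39. In both gaps the groups overlapped, and neither change passed (two-sided exact permutation p 0.3 and 1, adjusted over 6 pairs 0.45 and 1). With 3 arrays against 3 this test cannot go below 0.1.

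Cd14 holds lipopolysaccharide for the receptor Tlr4. It read 7.87, 8.16 and 8.36 in wild type and 7.45, 7.39 and 7.49 on the null-labelled arrays. The groups were well apart, and the wild-type arrays spread more (SD 0.25) than the others (SD 0.05). The difference was -0.69 (SE 0.13, 1.61-fold lower), with an adjusted p of 0.0791 in limma, the smallest of the 10 genes. Without wild type replicate 1, the lowest of its group, it was -0.82 with an adjusted p of 0.0413.

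Tlr4, the signalling receptor for lipopolysaccharide, read 7.003, 7.11 and 6.96 in wild type and 6.93, 7.02 and 6.80 on the null-labelled arrays. The groups overlapped, and the difference of -0.11 (adjusted p 0.649) had a 95% interval of -0.31 to 0.10. Cd14 minus Tlr4 within an array was 1.10 ± 0.27 in wild type and 0.52 ± 0.16 on the null-labelled arrays, without overlap. This change of -0.58 in the gap gave an exact permutation p of 0.1, the smallest that the design allows, and 0.45 adjusted over the 6 pairs. The 6 pairs were chosen after the values were seen. The gap restates the differences of Cd14 and Tlr4 given above and adds no separate result.

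Other parts of lipopolysaccharide sensing were read from a list of 6 coreceptor and ligand transfer genes, of which 4 were lower, 2 higher and none passed. Lbp, the plasma protein that delivers lipopolysaccharide to Cd14, read 11.35, 11.33 and 11.10 in wild type and 10.62, 10.07 and 9.77 on the null-labelled arrays, a difference of -1.11 with an adjusted p of 0.0791. Cd180 and its partner Ly86, a receptor pair of B cells and macrophages related to Tlr4 and Ly96, differed by -0.94 and -0.58 (adjusted p 0.0845 and 0.123 in limma). In all 3 genes the groups were apart. Ly96, the protein that binds lipopolysaccharide beside Tlr4, differed by -0.39 with overlapping groups (adjusted p 0.428).

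Tlr5 recognises flagellin, the protein of bacterial flagella. It read 8.20, 8.35 and 8.23 in wild type and 8.32, 8.08 and 7.80 on the null-labelled arrays. The latter spread widely and reached into the wild-type values. The difference was -0.19 (95% interval -0.50 to 0.12, adjusted p 0.575).

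The endosomal receptor Tlr7, for single-stranded RNA, and its relative Tlr8 are neighbours on the X chromosome. Tlr8 had the largest difference of the 10 genes, with 8.01, 8.49 and 8.30 in wild type and 7.06, 7.34 and 7.66 on the null-labelled arrays. The groups were apart, and the difference of -0.91 (SE 0.18, 95% interval -1.33 to -0.50, 1.89-fold lower) had an adjusted p of 0.0854 in limma. Tlr7 read 7.24, 7.85 and 7.46 in wild type and 6.68, 6.78 and 6.94 on the null-labelled arrays. These groups were also apart, and the difference was -0.71 (SE 0.16, 1.64-fold lower, adjusted p 0.107 in limma). The X-linked gene Xist, which females express, read between 10.9 and 11.1 on all 6 arrays, with overlapping groups. Tlr8 minus Tlr7 was 0.76 ± 0.10 in wild type and 0.55 ± 0.17 on the null-labelled arrays, a change of -0.20 with overlapping groups that did not pass (exact permutation p 0.2, adjusted 0.45).

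Tlr9 recognises DNA with unmethylated CpG. It read 6.53, 6.60 and 6.45 in wild type and 6.36, 6.21 and 6.07 on the null-labelled arrays. The groups did not overlap but lay close, with a difference of -0.31 (SE 0.10, 1.24-fold lower, adjusted p 0.223 in limma). Tlr3, the receptor for double-stranded RNA, read 9.18, 8.95 and 8.81 in wild type and 9.06, 8.78 and 8.81 on the null-labelled arrays. Its values were intermixed, and the difference of -0.09 (95% interval -0.38 to 0.19, adjusted p 0.792) turned to 0.0073 without wild type replicate 1.

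Of the receptors outside the list, Tlr13, the endosomal receptor for bacterial ribosomal RNA, was the one of 3 to pass. It read 7.51, 8.13 and 7.9997 in wild type and 6.74, 6.86 and 6.93 on the null-labelled arrays, a fall of 2.05-fold (log2 difference -1.03, SE 0.16, adjusted p 0.0477 in limma). The call was lost with the arrays centred on their medians (adjusted p 0.0534), after a second quantile normalization (adjusted p 0.0612), over every probe set (adjusted p 0.0508), and with any single array left out other than wild type replicate 1, with adjusted p-values up to 0.163. Tlr11 and Tlr12 differed by 0.46 and 0.12 (adjusted p 0.412 and 0.790) with overlapping groups.

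**Figure D2:**
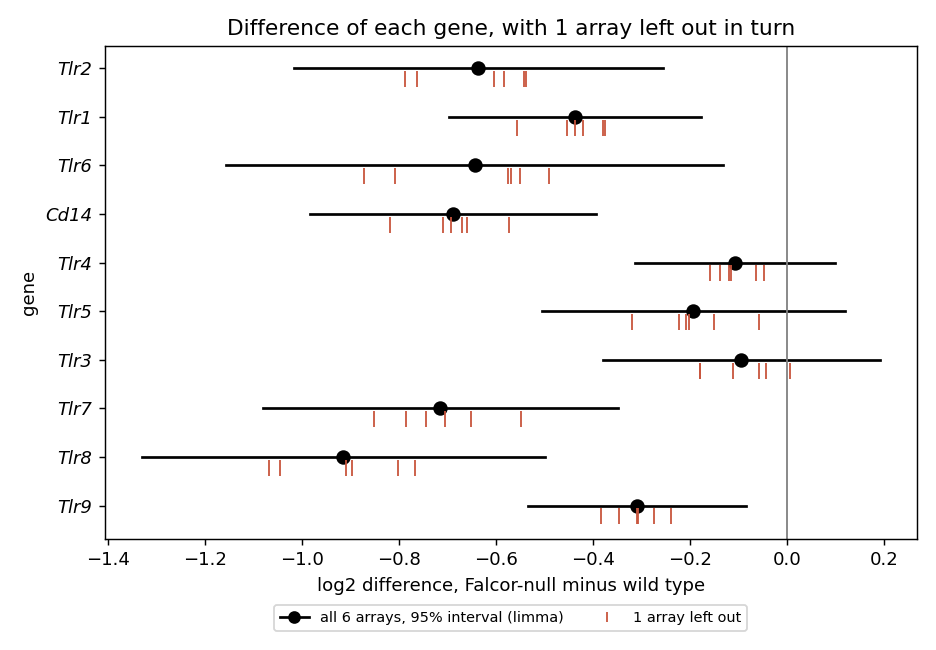
Log2 difference of each gene, null-labelled arrays minus wild type (horizontal axis), with its 95% interval from limma on all 6 arrays (black) and the differences with each array left out in turn (red ticks). Tlr8 has the largest difference at -0.91, the intervals of Tlr3, Tlr4 and Tlr5 include 0, and 1 tick of Tlr3 lies above 0.

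The 10 genes shared an order of the wild-type arrays in part. Wild type replicate 1 was the lowest of its group in 7 of the 10 and the highest in 1, and wild type replicate 2 was the highest in 7 and the lowest in none. On the null-labelled arrays, replicate 1 was the highest in 5 and the lowest in 2. The cell surface and endosomal genes had median differences of -0.54 (6 genes) and -0.51 (4 genes), and 3 genes of each set had groups that did not overlap. No detection calls were used here. As a rough scale of background, chosen after the data were seen, the means of Tlr1, Tlr6 and Tlr9 over the 6 arrays lay below the 95th percentile of 123 olfactory receptor genes (6.40), and those of the other 7 lay above it. Differences of dim probe sets are compressed.

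By a rule applied to the 7 genes with an unadjusted p under 0.05, the genes with the most similar pattern over the 6 arrays were listed by Pearson's r, as a description over arrays that also share the group difference. For Cd14 they were Cnr2, the cannabinoid receptor of immune cells (r 0.999), and Xylt1 (r 0.995). For Tlr7 they were the inhibitory leukocyte receptor Lilrb4a (r 0.995) and the TNF receptor Tnfrsf1b (r 0.992). For Tlr8 they were Ica1 (r 0.994) and properdin, Cfp (r 0.993). Tlr2 was nearest to Cd84 (r 0.989) and Gnmt (r 0.987), Tlr1 to the macrophage capping protein Capg (r 0.993) and Xylt1 (r 0.991), Tlr6 to the olfactory receptor Olfr205 (r 0.999) and Lrrc25 (r 0.996), and Tlr9 to Timp4 (r 0.993) and Harbi1 (r 0.990). Olfr205 is of the class used above as a scale of background, and it differed by -0.82 (limma adjusted p 0.218). Whether the Tlr6 difference exceeds background was not tested. All of the genes listed by r had lower means on the null-labelled arrays, which follows from picking them by likeness to lower genes. None of them passed the test. Each was among the 2 highest of 1938 (Tlr8) to 11829 (Tlr9) genes compared over only 6 arrays, so r was high by selection.

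Promoter sequences are shown for 5 receptors, to set genes whose groups were apart (Tlr8, Tlr2, Tlr1 and Tlr9) beside Tlr3, whose values were intermixed. They are the 250 bases before an annotated start, 5′ to 3′ on the gene's strand, from RefSeq on GRCm38.p6, where 7 of the 10 genes matched, all but Tlr4, Tlr7 and Cd14. Capitals mark matches, on either strand, to the motifs searched, and Tlr8 has none.
Tlr8, chrX:167264330-167264579, minus strand: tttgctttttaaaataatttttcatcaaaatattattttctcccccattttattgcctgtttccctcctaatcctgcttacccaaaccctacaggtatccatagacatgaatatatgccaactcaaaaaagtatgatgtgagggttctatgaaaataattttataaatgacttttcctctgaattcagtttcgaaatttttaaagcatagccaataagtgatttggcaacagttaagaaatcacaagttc
Tlr2, chr3:83841609-83841858, minus strand, NF-kB match: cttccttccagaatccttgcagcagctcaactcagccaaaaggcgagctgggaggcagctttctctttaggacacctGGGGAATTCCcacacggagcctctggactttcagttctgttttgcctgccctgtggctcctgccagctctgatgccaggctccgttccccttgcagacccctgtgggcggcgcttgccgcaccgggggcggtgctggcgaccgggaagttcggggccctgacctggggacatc
Tlr1, chr5:64933559-64933808, minus strand, PU.1 match: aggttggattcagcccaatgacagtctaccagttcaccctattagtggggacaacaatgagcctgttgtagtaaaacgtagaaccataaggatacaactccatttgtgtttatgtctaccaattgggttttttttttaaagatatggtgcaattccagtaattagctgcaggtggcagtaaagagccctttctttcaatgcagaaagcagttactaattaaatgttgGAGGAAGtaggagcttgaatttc
Tlr9, chr9:106222348-106222597, plus strand, PU.1 and AP-1 matches: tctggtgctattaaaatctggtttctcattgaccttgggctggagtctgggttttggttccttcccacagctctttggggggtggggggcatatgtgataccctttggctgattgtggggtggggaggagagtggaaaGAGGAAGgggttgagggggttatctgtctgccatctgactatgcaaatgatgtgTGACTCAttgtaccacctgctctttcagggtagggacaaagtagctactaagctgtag
Tlr3, chr8:45410381-45410630, minus strand, NF-kB match: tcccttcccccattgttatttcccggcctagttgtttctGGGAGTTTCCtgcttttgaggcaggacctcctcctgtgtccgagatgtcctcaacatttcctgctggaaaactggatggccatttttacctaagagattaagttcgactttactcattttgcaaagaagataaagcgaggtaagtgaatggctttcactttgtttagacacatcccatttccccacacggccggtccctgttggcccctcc

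The motifs were GAGGAAG for PU.1, the myeloid and B cell ETS factor, TGANTCA for AP-1, GGG, any 3 bases and TTCC for NF-kB, GAAA, any 2 bases and GAAA for interferon response elements, TTGCNNCAA for C/EBP and GCCCCGCCC for Sp1. Of 32851 such promoter windows, 10.6% held the PU.1 letters, 6.75% the AP-1, 4.65% the NF-kB, 2.98% the interferon response, 1.74% the C/EBP and 9.94% the Sp1 letters. The 7 genes had 9 windows, and 7 windows held a match. The share of all windows with a match to any of the motifs was not counted, so this count has no background beside it. The PU.1 letters began 23 bases before a start of Tlr1 and 112 bases before that of Tlr9, and the NF-kB letters 173 bases before that of Tlr2 and 211 before that of Tlr3. The NF-kB letters thus stood before a receptor whose groups were apart and before one whose values were intermixed. Of the windows not printed, a second start of Tlr1 held no match, 1 of Tlr6 held overlapping matches to the interferon response letters, the other of Tlr6 held NF-kB and C/EBP letters and that of Tlr5 held Sp1 letters. A match is a description of letters and not a site.

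The remaining genes of the pathway were read from 9 lists with 87 measured genes, Tlr11 to Tlr13 and the coreceptors included. Of the 87, 60 were lower and 27 higher, 2 passed as lower and none as higher, and the median log2 difference was -0.11. At an unadjusted p of 0.05, 26 were lower and 4 higher, against 7.65% of all genes lower and 6.11% higher.

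Among 10 genes of receptor trafficking all were lower and none passed, with a median of -0.16. Unc93b1, the chaperone that carries the nucleic acid receptors to endosomes, differed by -0.35 (adjusted p 0.255) with groups apart. The proteases Ctss and Ctsb, which act in endolysosomes, differed by -0.69 and -0.39 (adjusted p 0.217 and 0.280 in limma), the first with overlapping groups.

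Of 6 adaptor genes 5 were lower and none passed. Ticam2, which links Tlr4 to Ticam1, differed by -0.57 (adjusted p 0.213), the B cell adaptor Pik3ap1 by -0.49 (adjusted p 0.241) and Myd88 by -0.27 (adjusted p 0.482). Among 12 measured kinases and ubiquitin ligases 11 were lower, none passed and the median was -0.10. The differences of smallest p were -0.23 for Ikbke (adjusted p 0.320), -0.12 for Ikbkb (adjusted p 0.506) and -0.14 for Tab3 (adjusted p 0.511). Tlr1, Tlr2, Tlr6, Tlr7, Tlr8, Tlr9 and Cd14 differed by more than any of these 12, a contrast that was not tested. Tlr5 (-0.19), Tlr4 (-0.11) and Tlr3 (-0.09) did not. The genes above the 12 are those with an unadjusted p under 0.05 in limma, so the contrast follows in part from their choice.

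Transcription factors of the pathway were divided, with 4 lower and 5 higher of 9 and none passing. The myeloid and B cell factor Irf8 and the NF-kB subunit Rel differed by -0.30 and -0.36 (adjusted p 0.198 and 0.283), and Irf3, which acts below Ticam1, by 0.25 (adjusted p 0.290). Of 13 inhibitors 8 were lower and none passed. Tnip3, which binds the NF-kB inhibitor Tnfaip3, differed by -0.98 (adjusted p 0.088), the kinase-like brake Irak3 by -0.31 (adjusted p 0.161) and Tnfaip3 by -0.30 (adjusted p 0.273), all with groups apart.

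Genes that Toll-like receptor signalling is known to induce had 12 lower and 7 higher of 19, with a median of -0.33. Cd80, a costimulatory molecule of antigen-presenting cells, was the one that passed, from 6.36, 6.71 and 6.73 in wild type to 5.79, 5.89 and 5.77 on the null-labelled arrays. Its fall of 1.72-fold (log2 difference -0.79, SE 0.11, adjusted p 0.0407 in limma) lost its call with any single array left out other than wild type replicate 1 (adjusted p up to 0.142). The related Cd86 differed by -0.75 (adjusted p 0.107) and the iron-binding protein Lcn2 by -0.72 (adjusted p 0.0765), both with groups apart. Among the 7 higher genes, Ptgs2 differed by 0.71 with overlapping groups and Nos2 by 0.31 with groups apart (adjusted p 0.259 and 0.339 in limma).

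Of 9 endogenous ligands and lung modulators 5 were lower, 4 were higher and none passed. The neutrophil protein S100a8, proposed as a Tlr4 ligand, read 7.67, 7.60 and 9.17 in wild type and 6.51, 6.87 and 6.81 on the null-labelled arrays, with an adjusted p of 0.180, and wild type replicate 3 stood above the rest. The lung collectin Sftpd differed by -0.47 (adjusted p 0.210) with groups apart, and the matrix protein Tnc by 0.80 (adjusted p 0.330) with overlapping groups.

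**Figure D3:**
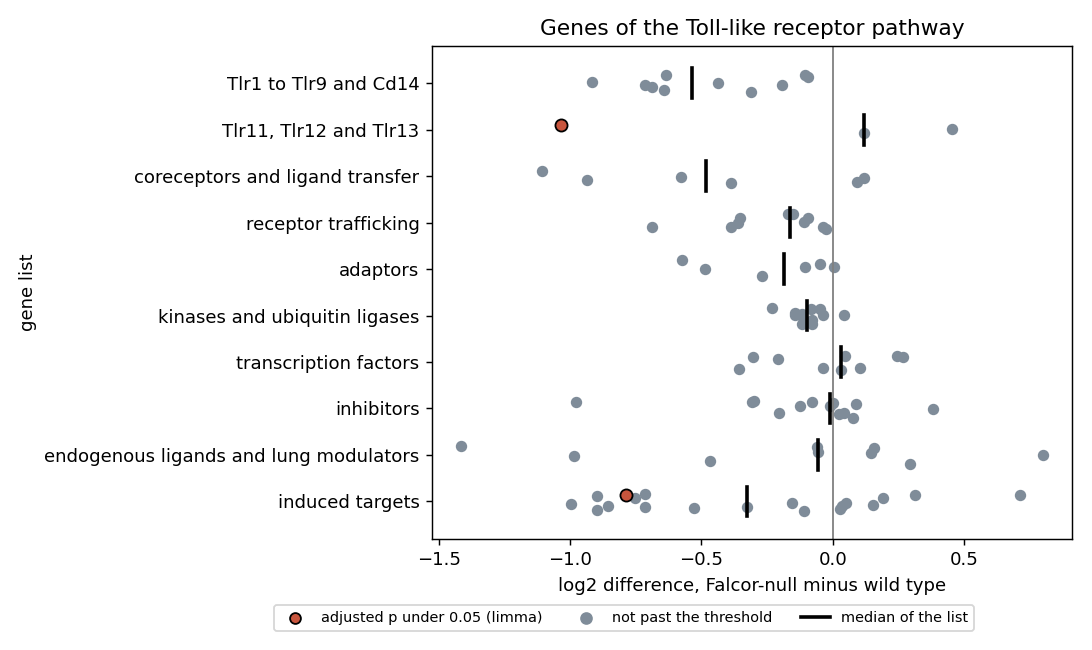
Log2 difference, null-labelled arrays minus wild type (horizontal axis), of each measured gene in the Toll-like receptor pathway, by list, with the list's median as a black bar and genes past the adjusted p in red. The 10 genes described here all lie below 0 with a median of -0.54, while the transcription factors and inhibitors lie on both sides of 0, and the 2 red points are Tlr13 and Cd80.

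Marker lists of cells that carry these receptors were lower on the same arrays. Of 11 monocyte and interstitial macrophage markers 10 were lower, none passed and the median was -0.48, with list means of 8.34 to 8.58 on the wild-type arrays and 7.93 to 8.07 on the null-labelled arrays. All 11 alveolar macrophage markers were lower with none passing and a median of -0.52, and the list means ran from 9.12 to 9.66 and from 8.56 to 9.12. In both lists wild type replicate 1 was the lowest and replicate 2 the highest of the wild-type arrays, an order also seen in Tlr2, Tlr5, Tlr6, Tlr7 and Tlr8. Tlr1 and Cd14 were instead highest on wild type replicate 3 and Tlr3 on replicate 1, and Tlr4 and Tlr9 were lowest on replicate 3. The order of the list means did not hold for every marker. Of the monocyte list, Cd68, Ms4a7, Fcgr1 and Mrc1 had it, and Mrc1 is in both lists. C1qa, C1qb, C1qc and Csf1r were lowest on wild type replicate 2. Ccr2 and Cx3cr1 were highest on replicate 3 and Ly6c2 on replicate 1. On the null-labelled arrays the alveolar macrophage list rose from replicate 1 to 3 (8.56, 8.70 and 9.12), as did Tlr7 and Tlr8. Tlr5 fell over the same arrays, Tlr6 was highest on replicate 1 and Tlr2 was lowest on replicate 2. All 8 neutrophil markers were lower with none passing, with list means of 7.11 to 8.41 and 6.34 to 6.69, the highest on wild type replicate 3.

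Of the cells known for Tlr7 and Tlr9, B and plasma cell markers were lower in 9 of 9, with 4 passing and list means of 7.63 to 7.84 and 6.71 to 6.91. Plasmacytoid dendritic cell markers were lower in 4 of 6, with 2 passing and list means of 6.86 to 7.06 and 6.59 to 6.64. The 2 were Bst2 (-0.79) and Spib (-1.33), so these list means rest mainly on them. Ly6d and Siglech were lower with overlapping groups (-0.30 and -0.06). Tcf4 and Irf7 were higher (0.19 and 0.10), Tcf4 with groups apart. Conventional dendritic cell markers were lower in 6 of 8 with 1 passing (6.63 to 6.96 against 6.44 to 6.45), and T and NK cell markers in 7 of 7 with 3 passing (6.80 to 7.11 against 6.26 to 6.35). By contrast 6 of 8 epithelial and 8 of 8 endothelial markers were higher, none passing, with list means, wild type first, of 10.45 to 10.54 against 10.55 to 10.65 and of 10.25 to 10.28 against 10.45 to 10.61. Their median log2 differences were small, at 0.07 and 0.15, and the epithelial count includes Epcam at 0.005 and Scgb1a1 at 0.017. Scgb1a1 and Sftpc read near 13.6, close to the array maxima of 13.83 to 13.90, where little change can show. The lowest mean of a single marker gene was 5.02, that of Spib, and whether such dim markers exceed background is not known here. The part of these cells in the differences of the receptors was not tested.

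**Figure D4:**
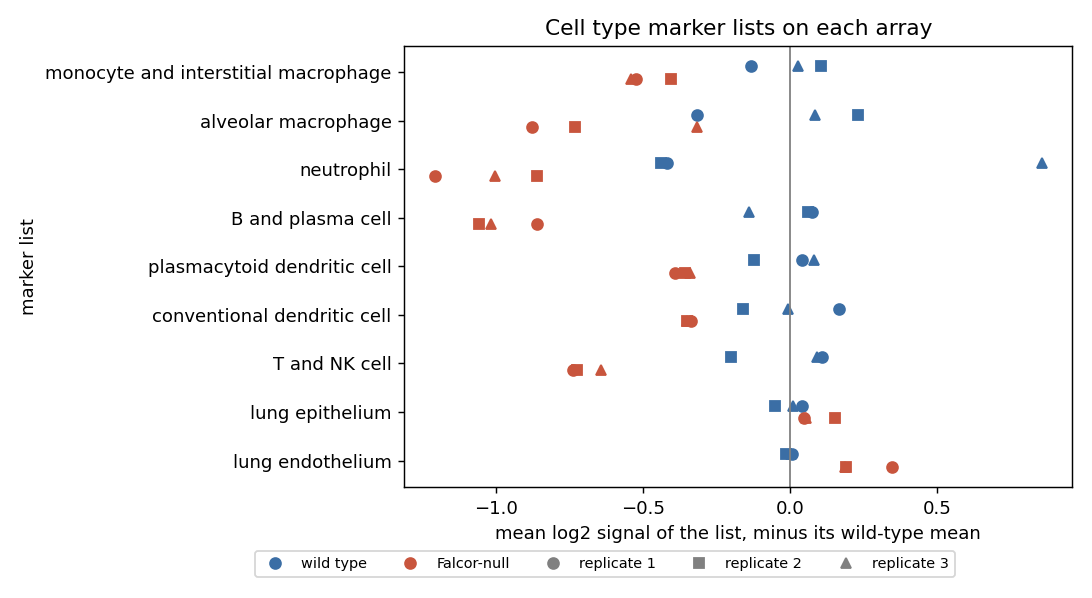
Mean log2 signal of each cell type marker list on each array, minus the list's mean over the 3 wild-type arrays (horizontal axis), for wild-type arrays (blue) and null-labelled arrays (red), with the replicate number as the marker shape. The 7 immune cell lists lie lower on the null-labelled arrays, the alveolar macrophage list with its highest such array level with wild type replicate 1, and the epithelial and endothelial lists lie level with or above wild type.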

How the data were processed

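RNA of 6 whole-lung samples, grouped by their titles, was measured on single-channel arrays. The authors deposited 1 log2 signal for each probe set and array. Per the submitters' processing notes, the tools were oligo, RMA and limma (no versions). In RMA, background is corrected, arrays are quantile-normalized and probes are summarised, which removes a shift of most genes and compresses differences of dim probe sets. The genome build and any row filter are not given in the sources used here. The test used the 17476 of 24173 probe sets that carry a single gene symbol. Probe sets with several symbols (1308) or none in the annotation given (5389) were left out. For 740 genes with several probe sets the brightest was used, leaving 16537 genes. Neighbouring genes were read from RefSeq GRCm38.p6.

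Differences were tested with lmFit and eBayes (limma 3.58.1, R 4.3.3) without covariates, as two-sided tests adjusted by Benjamini-Hochberg over all genes, at an adjusted p of 0.05. The fit was tested on simulated data. Named outside the 10 genes were Falcor, pathway list genes that passed and the 3 genes of smallest p in each pathway list. The rule also took the 2 genes of highest r among those with at least 0.5 of the member's range. Ly96, Xist, Ptgs2, Nos2, the marker genes named and the partner pairs fall outside that rule. Not every marker that passed is named. Members and lists were chosen with earlier results of these data known. Alternatives were the replicate block, centring, a second quantile normalization, variance settings, array weights, dim-gene filters, probe set handling, a threshold of 0.1 and leaving out each array. Figures were drawn with matplotlib 3.10.9.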

Additional observations from a re-analysis of the deposited data

How the results depend on the processing

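Of 157 values of the 10 genes under alternatives, 155 kept their direction and stayed short of an adjusted p of 0.05 (limma). Under the replicate block, variance settings, dim-gene filters and probe set handling, the difference of each gene kept was the main one. Its direction could therefore change only under the other settings. Without wild type replicate 1, Cd14 passed (adjusted p 0.0413) and Tlr3 turned to 0.0073; the cause was not tested. Tlr3 otherwise stayed below 0, down to -0.18. Leaving out 1 array gave 0 to 1 of the 10 genes passing, 9 to 10 lower, 6 to 8 with an unadjusted p under 0.05, 18 to 89 genes passing in all against 92, and 0 to 2 of the pathway genes against 2. At an adjusted p under 0.1, 2 of the 10 genes (Cd14 and Tlr8) passed, with 280 genes in all and 6 of the pathway. Leaving out genes below the median signal removed Tlr1, Tlr6 and Tlr9, and Cd80 of the pathway. With these removed, 4 of the 10 genes had an unadjusted p under 0.05 and 1 pathway gene passed. The pathway count was 1 after centring, a second quantile normalization or testing every probe set, and 4 with an intensity trend; the cause was not tested. With the replicate block, 32 genes passed and 0 of the pathway, Tlr13 having an adjusted p of 0.0665 and Cd80 of 0.0846. Arrays of the same number did not deviate together (r across genes 0.02, -0.0025 and -0.08), so the numbers give no pairing. Centring moved the median of all genes to 0.03, Tlr4 to -0.08 and Tlr3 to -0.07, a shift shared by all genes. The number of arrays limits all 10 genes, and without detection calls the signal over background of the dim ones is unknown.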
